A study of Mus musculus with 6 samples.

Results

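The tumor necrosis factor (TNF) receptor and NF-kB pathway genes were described by 10 genes of the deposited count table, matched by gene symbol. They were Tnfrsf1a and Tnfrsf1b, Ikbkb, Nfkb1, Nfkb2, Rel, Rela and Relb, and Nfkbia and Tnfaip3. Each symbol matched 1 gene among the 52636 genes of the table, and all 10 passed the filter on low counts, which kept 17849 genes. RNA was sequenced from embryoid bodies (EBs), aggregates in which embryonic stem cells (ESCs) begin to differentiate, on day 3 of differentiation. The 3 WT samples came from the parental mouse ESC line E14, and the 3 Tnfaip2-/- samples from 1 clone of that line, in which CRISPR-Cas9 editing left a premature stop codon in Tnfaip2. Both groups were expanded with leukemia inhibitory factor, aggregated in hanging drops for 3 days and then plated on gelatin in a medium listed without this factor. With 1 line per genotype, the genotype and the history of the clone cannot be told apart, and p-values measure only the spread between samples. The study's methods call the 3 samples of a group biological replicates, and the labels do not say how they were separated. Differences between samples were set against sampling noise for genes with a mean count of at least 50. They were 1.253 to 1.61 times this noise within a genotype and 21.336 to 23.278 times between genotypes. The p-values therefore rest on a spread close to sampling noise. Whether the samples of a group were independent cultures was not tested.

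TNF binds the receptors encoded by Tnfrsf1a and Tnfrsf1b, which recruit adaptor proteins and ubiquitin ligases and thereby activate the IkB kinase complex. The kinase marks IkB proteins for degradation, which frees NF-kB dimers to enter the nucleus and activate genes for cytokines, adhesion molecules and survival factors. Among the activated genes are those for IkBα and A20, encoded by Nfkbia and Tnfaip3, which end the response, and pluripotent stem cells are known for low activity of the pathway. Tnfaip2 takes its name from its induction by TNF, and the comparison asked whether transcripts of the pathway differed between EBs with and without an intact Tnfaip2 gene.

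Of the 10 genes, Nfkb1, Nfkbia, Tnfrsf1a and Rela were lower in Tnfaip2-/- EBs and Tnfaip3 was higher, although the call of Tnfaip3 was lost in DESeq2 and in 5 of 6 fits that left out 1 sample, and that of Tnfrsf1a in DESeq2 and in 1 of these fits. The largest differences were those of Nfkb1, at 0.557 times the WT level, and Nfkbia, at 0.625 times the WT level. The subunit gene Rela differed less, at 0.853 times the WT level, and transcripts of Ikbkb, Nfkb2, Rel, Relb and Tnfrsf1b did not pass the test. A gene is called where edgeR's test between the genotypes gave it an adjusted p (Benjamini-Hochberg) below 0.05. Thus 5 of 10 genes were called, against 67.7% of all tested genes. The 4 genes called lower stand beside 33.7% of all tested genes called lower, and the 1 gene called higher beside 34% called higher. In DESeq2, which called 10261 of 22560 genes in either direction, 3 of the 10 genes were lower and 0 higher. Without Tnfaip2-/- replicate 2, where edgeR called 11594 of 18171 genes, 3 were lower and 1 higher. None of the 10 genes was both called and changed at least 2-fold, which 12% of all tested genes were. The samples of each genotype lay on separate sides, without overlap, for 7 of the 10 genes and for 69.4% of all tested genes. The median log2 fold change of the 10 genes was -0.05 and their median absolute log2 fold change was 0.22, against 0.003 and 0.30 over all tested genes. The differences between these counts or medians and those of all tested genes were not tested.

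The depth was similar in all samples. The WT samples held 22987433, 22489903 and 23804489 counts in replicates 1, 2 and 3. The Tnfaip2-/- samples held 22480962, 21765931 and 21986960 counts. No sample stood apart in depth, and 3 counts corresponded to between 0.128 and 0.137 counts per 1000000 (CPM). Levels are given below as counts in replicates 1, 2 and 3 and as normalized CPM, mean ± SD. Levels of different genes are compared as RPKM, which divides CPM by the exon length in kilobases, and CPM of marker genes are summed only to follow a list between samples. In bulk RNA, fewer cells of a type and less RNA per cell cannot be told apart.

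**Figure D1:**
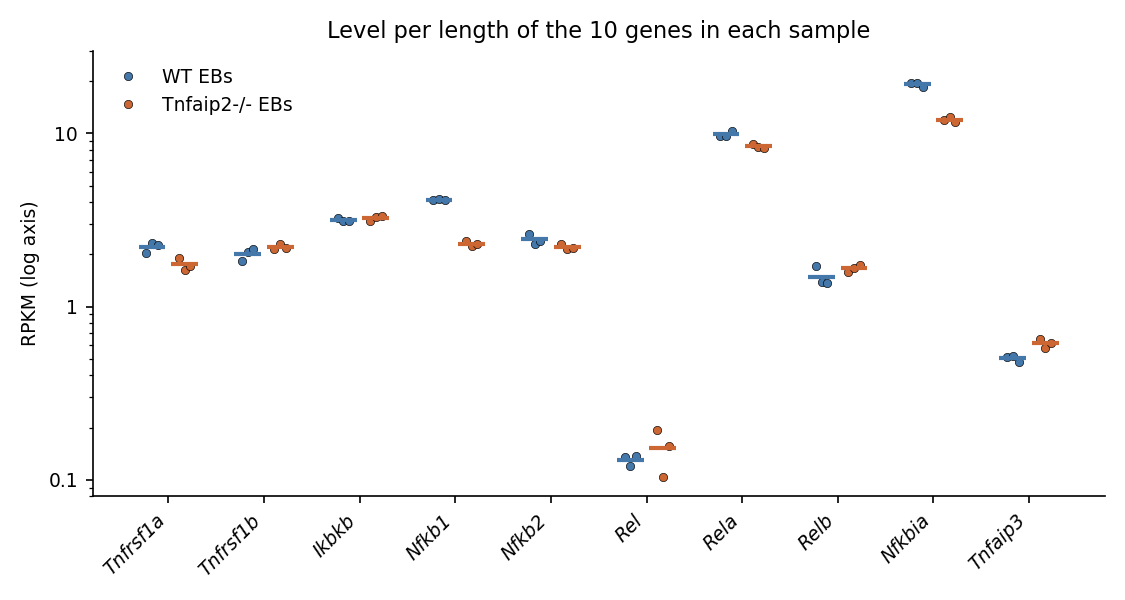
RPKM of the 10 genes in each of the 3 WT (blue) and 3 Tnfaip2-/- (orange) EB samples, on a log axis, with a line at each group mean. Nfkbia is the highest and Rel the lowest of the 10 in both genotypes, and the points of Nfkb1 and Nfkbia separate by genotype.

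The edited gene Tnfaip2 (ENSMUSG00000021281, chr12:111442469-111455018, forward strand, GRCm38) was counted 7, 4 and 7 times in WT EBs and 0, 2 and 2 times in Tnfaip2-/- EBs. Every WT sample lay above every Tnfaip2-/- sample, but the gene did not pass the filter on low counts. Fitted without the filter it had a log2 fold change of -2.05 (edgeR adjusted p = 0.0133), and in DESeq2 one of -2.13 that did not pass (adjusted p = 0.0933). Fitted fold changes at such counts are imprecise. A premature stop codon need not remove the transcript, and the edited allele cannot be read from counts per gene.

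Transcripts of the ligands that bind both receptors were at or near 0. Tnf was counted 0, 0 and 0 times in WT EBs and 0, 1 and 0 times in Tnfaip2-/- EBs. Lta, which encodes lymphotoxin alpha, was counted 2, 3 and 0 times in WT EBs and 0, 1 and 1 times in Tnfaip2-/- EBs. No value exceeded 3 counts, so no fold change is given for either gene, and a difference was not detectable at this depth.

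Tnfrsf1a (ENSMUSG00000030341, chr6:125349362-125362484, forward strand) encodes TNFR1, the receptor that carries a death domain and is found on most cell types. Its counts were 120, 135 and 138 in WT EBs and 113, 92 and 99 in Tnfaip2-/- EBs. The Tnfaip2-/- samples were all lower than the WT samples, with replicate 1 of each genotype nearest to the other group. The mean fell from 5.73 ± 0.387 to 4.55 ± 0.393 CPM, which is a log2 fold change of -0.33 with a standard error of 0.11 (edgeR adjusted p = 0.00872). The call was lost without Tnfaip2-/- replicate 2 (log2 fold change -0.28, edgeR adjusted p = 0.0504) and in DESeq2 (adjusted p = 0.0838), over alternatives whose adjusted p ranged from 0.0051 to 1.

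Tnfrsf1b (ENSMUSG00000028599, chr4:145213463-145246870, reverse strand) encodes TNFR2, which lacks a death domain and signals through TRAF proteins. It was counted 159, 176 and 193 times in WT EBs and 187, 191 and 184 times in Tnfaip2-/- EBs. After normalization for depth the WT samples lay between 7.02 and 8.21 CPM and the Tnfaip2-/- samples between 8.23 and 8.72 CPM, so the groups did not overlap but nearly met. Its log2 fold change was 0.13, with a 95% interval from -0.06 to 0.31, and did not pass the test (edgeR adjusted p = 0.214).

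Ikbkb (ENSMUSG00000031537, chr8:22659212-22706589, reverse strand) encodes IKKβ, the kinase that phosphorylates IkBα in the canonical branch of the pathway. It was counted 1407, 1339 and 1391 times in WT EBs and 1359, 1378 and 1410 times in Tnfaip2-/- EBs. The samples of both genotypes were interleaved. The log2 fold change was 0.04, and its 95% interval of -0.04 to 0.12 was the narrowest of the 10 genes (edgeR adjusted p = 0.355). Chuk, which encodes the related kinase IKKα, was higher in Tnfaip2-/- EBs, with a log2 fold change of 0.43 (edgeR adjusted p = 1.68e-13). The ratio of Chuk to Ikbkb RPKM was 2.91, 3.01 and 3.11 in WT EBs and 4.14, 3.91 and 3.77 in Tnfaip2-/- EBs. Every Tnfaip2-/- sample had the higher ratio. Its size depends on the exon lengths used, 5087 bases for Chuk and 19078 for Ikbkb, which are the same for both genotypes. In CPM the mean of Chuk was below that of Ikbkb in WT EBs, at 48.4 against 60.4. In Tnfaip2-/- EBs it was 65.2 against 62.1. Chuk was not among the genes to be named by rule and was chosen for this ratio after its values were seen.

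**Figure D2:**
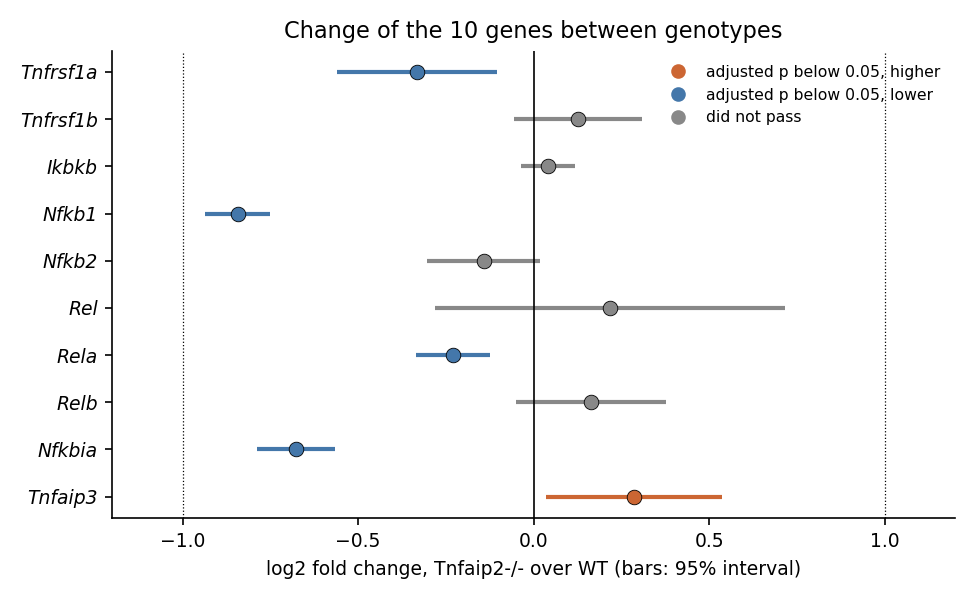
The log2 fold change of each of the 10 genes in Tnfaip2-/- over WT EBs, with the 95% interval as a bar and dotted lines at a 2-fold change. Nfkb1 at -0.84 and Nfkbia at -0.68 lie farthest from 0, and the interval of Rel is the widest.

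Among the genes of the 5 NF-kB subunits, the largest change was in Nfkb1 (ENSMUSG00000028163, chr3:135584655-135691547, reverse strand), which encodes the p105 precursor of p50. It was counted 1124, 1131 and 1163 times in WT EBs and 656, 589 and 612 times in Tnfaip2-/- EBs. Each Tnfaip2-/- sample was far below each WT sample, and the spread within a genotype was small beside the gap between genotypes. The mean fell from 49.9 ± 0.557 to 27.8 ± 1 CPM, which is a log2 fold change of -0.84 with a standard error of 0.05 (edgeR adjusted p = 4.58e-21). It was the only one of the 10 genes called when the test was set against a fold change of 1.5 (edgeR adjusted p = 1.36e-06, the highest over its alternatives, with DESeq2's adjusted p of 2.27e-39 the lowest).

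Rela (ENSMUSG00000024927, chr19:5637483-5648130, forward strand) encodes p65, the transactivating partner of p50. It was counted 670, 662 and 747 times in WT EBs and 605, 562 and 560 times in Tnfaip2-/- EBs. All Tnfaip2-/- samples were below all WT samples, with WT replicate 3 the highest. The mean fell from 30.3 ± 1.29 to 25.8 ± 0.707 CPM, which is a log2 fold change of -0.23 with a standard error of 0.05 (edgeR adjusted p = 0.000151). Against a fold change of 1.5 Rela was not called (edgeR adjusted p = 1), and over the alternatives the adjusted p ranged from 6.57e-05 to that value.

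Nfkb2 (ENSMUSG00000025225, chr19:46304320-46312385, forward strand) encodes the p100 precursor of p52, the subunit of the non-canonical branch. It was counted 273, 237 and 258 times in WT EBs and 240, 217 and 221 times in Tnfaip2-/- EBs. In CPM the samples of each genotype did not overlap, although the highest Tnfaip2-/- value of 10.56 was close to the lowest WT value of 10.58. The log2 fold change of -0.14 had a 95% interval from -0.30 to 0.02 (edgeR adjusted p = 0.112). In the annotation 14.8% of the read-length windows of Nfkb2 overlap another gene, chiefly Psd and AC114539.1 on the opposite strand, and the library kit does not mark strand, so its counts are uncertain to that extent.

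Relb (ENSMUSG00000002983, chr7:19606217-19629438, reverse strand) encodes the usual partner of p52. It was counted 150, 121 and 125 times in WT EBs and 140, 142 and 150 times in Tnfaip2-/- EBs. WT replicate 1 lay within the range of the Tnfaip2-/- samples and the other WT samples lay below it. For Relb it was 0.16 on the log2 scale, with a 95% interval from -0.05 to 0.38 (edgeR adjusted p = 0.172). Without WT replicate 1 it was 0.26 and passed the threshold (edgeR adjusted p = 0.0494), whereas the adjusted p ranged up to 1 over the alternatives.

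Rel (ENSMUSG00000020275, chr11:23736847-23770970, reverse strand) encodes c-Rel, best known from lymphocytes, and had the lowest level. It was counted 23, 20 and 24 times in WT EBs and 33, 17 and 26 times in Tnfaip2-/- EBs. The Tnfaip2-/- samples lay on both sides of the WT samples, with replicate 1 the highest and replicate 2 the lowest of all. For Rel the log2 fold change of 0.22 had a 95% interval from -0.28 to 0.72 (edgeR adjusted p = 0.445). At this depth the interval spanned changes in either direction. Without Tnfaip2-/- replicate 1 the log2 fold change was -0.0048.

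The subunit transcripts shifted in their proportions. Nfkb1 made up 22.6%, 23.8% and 22.4% of the summed RPKM of the 5 subunit genes in WT EBs and 15.8%, 15.4% and 15.7% in Tnfaip2-/- EBs. The share of Relb was 9.36%, 7.89% and 7.46% in WT EBs and 10.5%, 11.5% and 11.9% in Tnfaip2-/- EBs. The share of Nfkb2 was 14.4%, 13.1% and 13.1% in WT EBs and 15.2%, 14.9% and 14.9% in Tnfaip2-/- EBs. For these 3 shares the samples of the genotypes did not overlap. A share also rises when the sum falls, and neither Relb nor Nfkb2 was called by itself. By RPKM Rela remained the largest component, at 54.6% ± 1.76 (SD, n = 3) in WT EBs and 57.0% ± 0.601 (SD, n = 3) in Tnfaip2-/- EBs. The groups overlapped slightly. This rank depends on the exon lengths used, which were 12061 bases for Nfkb1 and 3072 for Rela. In CPM, which is not divided by length, Nfkb1 was above Rela. The means were 49.9 against 30.3 CPM in WT EBs and 27.8 against 25.8 CPM in Tnfaip2-/- EBs. The summed RPKM of the 5 genes was 18.1 ± 0.382 in WT EBs and 14.7 ± 0.347 in Tnfaip2-/- EBs. The RPKM ratio of Nfkb1 to Rela was 0.420 ± 0.0204 in WT EBs and 0.274 ± 0.00606 in Tnfaip2-/- EBs, and every Tnfaip2-/- sample had the lower ratio. Shares and ratios are given without a test. An exact two-sided permutation test of 3 against 3 samples could not reach a p below 0.1, and no other test was run on them.

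**Figure D3:**
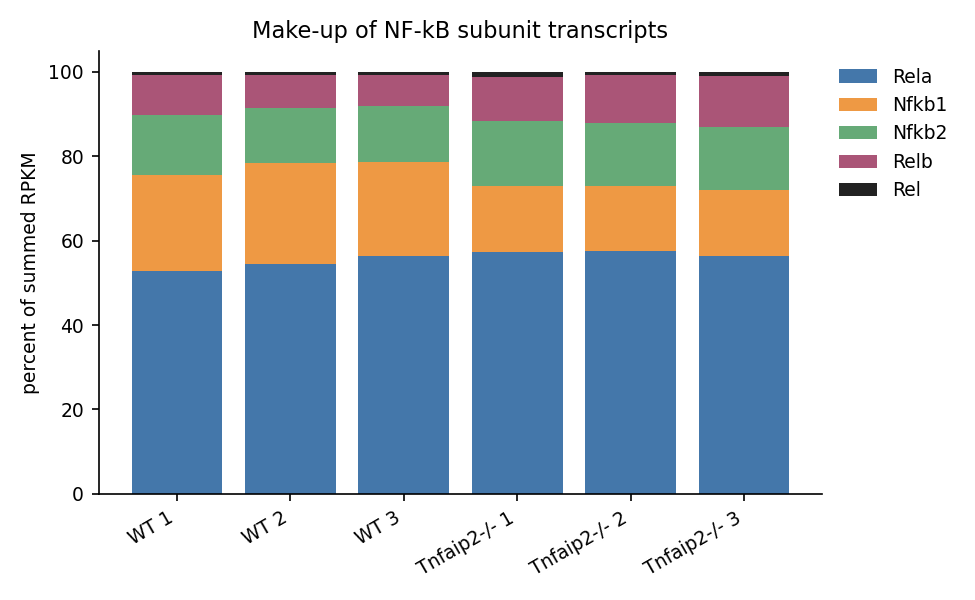
Share of each NF-kB subunit gene in the summed RPKM of the 5 genes, as percent, with a bar for each sample. The Nfkb1 segment averages 22.9% in WT and 15.6% in Tnfaip2-/- EBs, and Rela is the largest segment in every sample. The sizes of the segments depend on the exon length used for each gene.

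The genes of both feedback inhibitors had log2 fold changes of opposite sign, firmly called for Nfkbia only. Nfkbia (ENSMUSG00000021025, chr12:55489410-55492647, reverse strand) encodes IkBα, which holds NF-kB dimers in the cytoplasm. It was counted 712, 703 and 701 times in WT EBs and 435, 436 and 418 times in Tnfaip2-/- EBs. The values were tightly grouped within each genotype and far apart between them. The mean fell from 30.9 ± 0.906 to 19.3 ± 0.546 CPM, which is a log2 fold change of -0.68 with a standard error of 0.05 (edgeR adjusted p = 4.53e-15). The call was lost only when the test was set against a fold change of 1.5 (edgeR adjusted p = 0.0841), and over the alternatives the adjusted p ranged from 1.44e-18 to that value.

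Tnfaip3 (ENSMUSG00000019850, chr10:19000910-19015657, reverse strand) encodes A20, a ubiquitin-editing enzyme that dampens signaling from TNF receptors. It was counted 84, 84 and 81 times in WT EBs and 106, 91 and 99 times in Tnfaip2-/- EBs. All Tnfaip2-/- samples were above all WT samples, with replicate 2 the nearest to them. The mean was 3.64 ± 0.164 CPM in WT EBs and 4.43 ± 0.257 CPM in the Tnfaip2-/- samples, which is a log2 fold change of 0.29 with a standard error of 0.12 (edgeR adjusted p = 0.0397). This call was lost without WT replicate 1 (0.0697), WT replicate 2 (0.0555), WT replicate 3 (0.138), Tnfaip2-/- replicate 1 (0.12) or Tnfaip2-/- replicate 3 (0.0896), each given as edgeR adjusted p. It was also lost in DESeq2 (adjusted p = 0.233) and without the filter on low counts (edgeR adjusted p = 0.0777), while the adjusted p over all alternatives ranged from 0.0248 to 1.

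The RPKM ratio of Nfkbia to Tnfaip3 was 38.0, 37.6 and 38.8 in WT EBs and 18.4, 21.5 and 19.0 in Tnfaip2-/- EBs. Nfkbia RPKM stood at 1.06 ± 0.0489 of the summed RPKM of the 5 subunit genes in WT EBs and at 0.813 ± 0.0345 in Tnfaip2-/- EBs. In both ratios every Tnfaip2-/- sample was lower than every WT sample. The sum includes Nfkb2 and Relb, whose products are not the main partners of IkBα.

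Because Nfkbia and Tnfaip3 are textbook targets of NF-kB with fold changes of opposite sign here, that of Tnfaip3 with the weak call given above, their promoters were read from RefSeq (GRCm38.p6), together with those of the other genes. The windows ran from 250 bases before to 50 bases after each transcription start, and 7 of the 10 genes had one, with no entry for Nfkb1, Relb and Ikbkb. The NF-kB consensus motif, searched on both strands, was present in the windows of Nfkbia, Tnfaip3, Rel and Nfkb2 and in 4.51% of the 32851 windows of the whole table. These 4 genes include Nfkbia, which was lower, Tnfaip3, which was higher with a weak call, and 2 that did not pass the test. The 99 bases shown for Nfkbia (chr12:55492649-55492747), Tnfaip3 (chr10:19015412-19015510) and Rel (chr11:23770971-23771069), all on the reverse strand and free of annotated exons, let the matches be compared among genes with different results. The stretch of Tnfaip3 precedes the RefSeq start used here but lies inside the gene as annotated by GENCODE, whose start is farther upstream, at 19015657. Capitals mark the matches, and overlapping matches are joined.
Nfkbia: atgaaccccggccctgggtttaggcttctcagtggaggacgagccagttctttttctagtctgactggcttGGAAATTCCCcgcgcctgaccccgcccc
Tnfaip3: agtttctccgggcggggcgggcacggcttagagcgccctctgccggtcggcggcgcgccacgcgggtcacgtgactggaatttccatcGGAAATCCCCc
Rel: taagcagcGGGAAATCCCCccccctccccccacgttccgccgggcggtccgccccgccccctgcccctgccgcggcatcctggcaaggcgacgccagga
A match is a description of these letters and not a measured binding site, and the absence of a match says only that the letters are not in this window. Tnfaip3 had a further match upstream of the stretch shown. Nfkb2 had matches in 3 windows, and no match was found for Rela, Tnfrsf1a or Tnfrsf1b.

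The order of levels by RPKM was nearly the same in both genotypes. In WT EBs it ran from Nfkbia (19.2 ± 0.563) through Rela (9.87 ± 0.419), Nfkb1 (4.13 ± 0.0462), Ikbkb (3.16 ± 0.0796), Nfkb2 (2.44 ± 0.165), Tnfrsf1a (2.21 ± 0.149), Tnfrsf1b (2.02 ± 0.161) and Relb (1.49 ± 0.187) to Tnfaip3 (0.503 ± 0.0227) and Rel (0.131 ± 0.00968). Nfkb2 and Tnfrsf1a, and Tnfrsf1a and Tnfrsf1b, overlapped in that order. In Tnfaip2-/- EBs Nfkb1 (2.30 ± 0.0832) stood below Ikbkb (3.26 ± 0.105), and Tnfrsf1a (1.75 ± 0.152) stood below Tnfrsf1b (2.20 ± 0.0697). Nfkb1 overlapped Nfkb2 there, Nfkb2 overlapped Tnfrsf1b, and Tnfrsf1a overlapped Relb. Exon lengths from the annotation enter these values, so they order genes only roughly, and the same lengths apply to both genotypes.

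The surrounding pathway was described by 91 further genes in 7 lists, of which 61 were tested. In edgeR 31 of them (50.8%) were higher in Tnfaip2-/- EBs and 13 (21.3%) were lower, against 34% and 33.7% of all tested genes. In total 72.1% were called, against 67.7% of all tested genes, and 14 of the 61 were both called and changed at least 2-fold, against 12% of all tested genes. Of the 14, 11 were higher and 3 lower. The median log2 fold change of the 61 genes was 0.20, against 0.003 over all tested genes. More of these genes were higher than lower, whereas more of the 10 genes above were lower than higher, and this contrast was not tested.

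**Figure D4:**
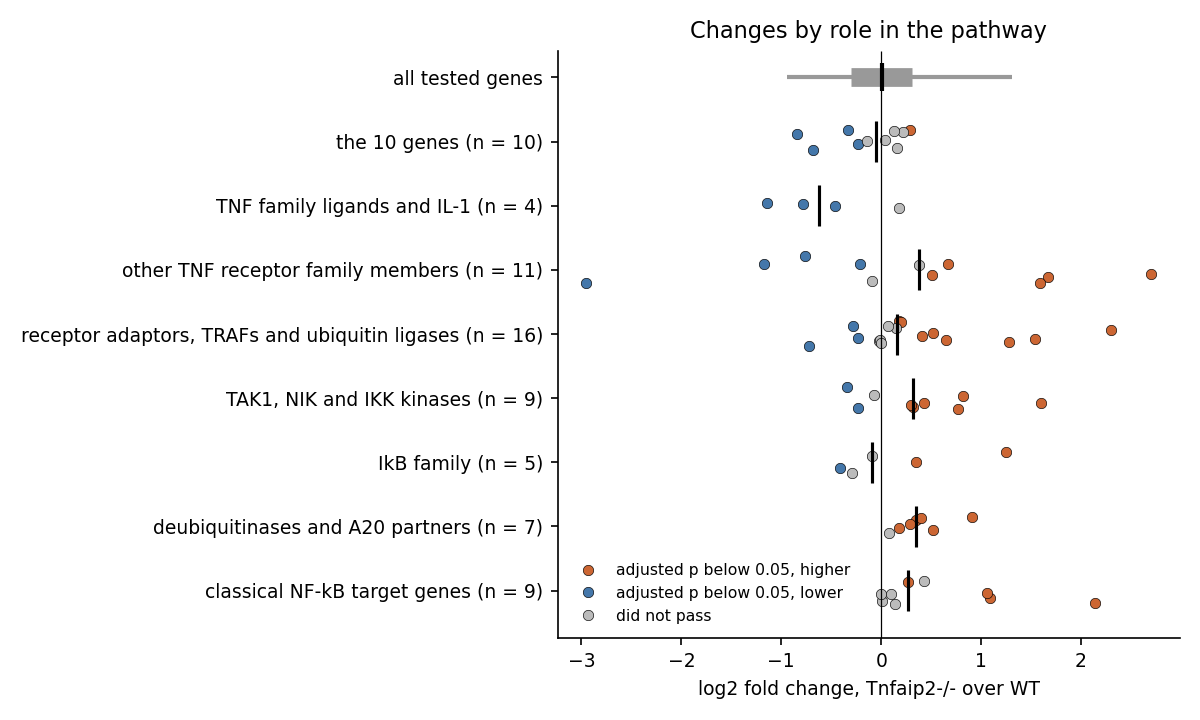
The log2 fold change in Tnfaip2-/- over WT EBs of each tested gene, by list, with a black line at the list median. The grey bar shows the middle of all tested genes (percentiles 25 to 75, -0.30 to 0.31) and the thin line percentiles 5 to 95 (-0.94 to 1.31).

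Among 12 genes of TNF family ligands and interleukin 1, only 4 were tested, and Tnfsf10 and Il1b had no count in any sample. None of the tested genes was called higher by edgeR, at an unadjusted p below 0.05 or in DESeq2, and 3 were lower. Over all tested genes edgeR called 34% higher and 33.7% lower. Tnfsf11, which encodes RANKL, was counted 80, 62 and 79 times in WT EBs and 33, 30 and 34 times in Tnfaip2-/- EBs. Its samples were separated by genotype and it had a log2 fold change of -1.15 (edgeR adjusted p = 9.44e-08). Tnfsf12, which encodes TWEAK, had the highest RPKM of the list and was lower by a log2 fold change of -0.47 (edgeR adjusted p = 0.000665). In the annotation 46.7% of its read-length windows are shared with another gene, mostly with the overlapping Tnfsfm13 on the same strand, so its value is uncertain.

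Of 16 other TNF receptor family members, 11 were tested, with 5 higher and 4 lower, against 34% and 33.7% of all tested genes. The extremes lay on both sides. Tnfrsf19, which encodes TROY, was counted 690, 681 and 736 times in WT EBs and 101, 81 and 83 times in Tnfaip2-/- EBs. It was lower in every Tnfaip2-/- sample, at 0.129 times the WT level and a log2 fold change of -2.95 with a standard error of 0.08 (edgeR adjusted p = 4.55e-33). Cd40, whose product is the costimulatory receptor of antigen-presenting cells, was counted 79, 96 and 93 times in WT EBs and 44, 32 and 40 times in Tnfaip2-/- EBs. It also fell without overlap, by a log2 fold change of -1.17 (edgeR adjusted p = 1.04e-08). Tnfrsf25, which encodes the death receptor DR3, was counted 22, 20 and 23 times in WT EBs and 129, 140 and 146 times in Tnfaip2-/- EBs. It was at 6.52 times the WT level, a log2 fold change of 2.70 (edgeR adjusted p = 7.88e-20). Eda2r, whose product binds ectodysplasin A2, had the highest RPKM of the list over all 6 samples and in Tnfaip2-/- EBs (12.8), whereas in WT EBs its 4.02 was below the 6.49 of Tnfrsf19. It was counted 492, 550 and 582 times in WT EBs and 1723, 1655 and 1668 times in Tnfaip2-/- EBs. Ngfr, which encodes the neurotrophin receptor p75, was counted 294, 281 and 247 times in WT EBs and 784, 806 and 816 times in Tnfaip2-/- EBs. Both genes were higher in every Tnfaip2-/- sample, with log2 fold changes of 1.67 for Eda2r (edgeR adjusted p = 9.52e-33) and 1.59 for Ngfr (edgeR adjusted p = 2.46e-26).

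**Figure D5:**
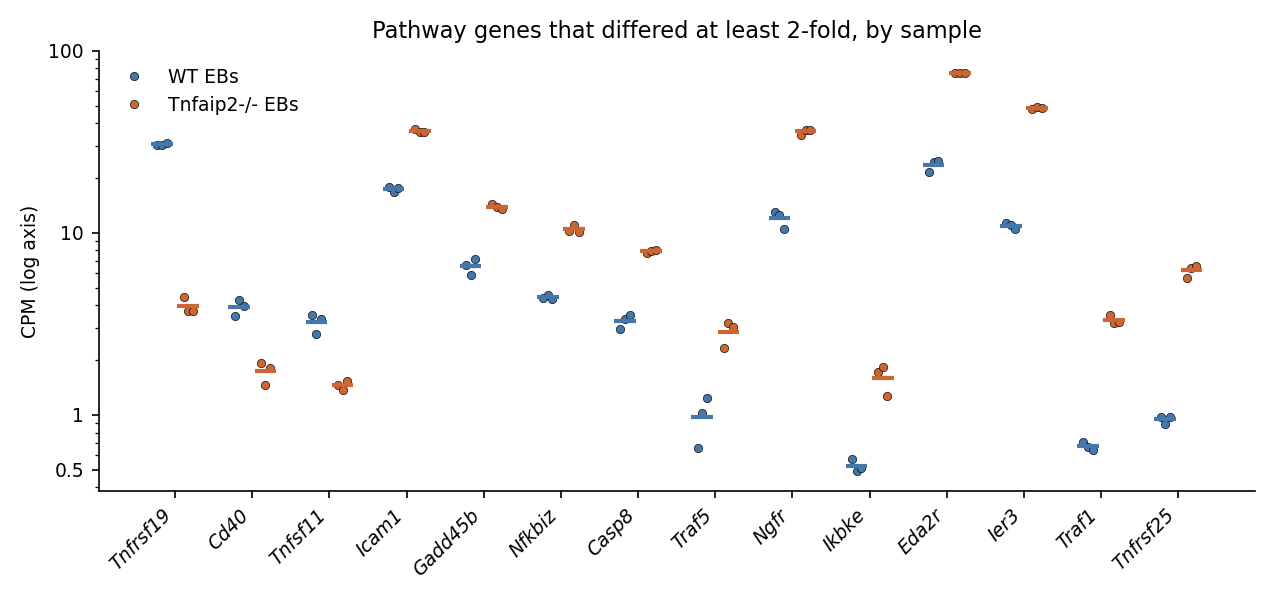
CPM on a log axis of the 14 pathway genes that were called and differed at least 2-fold, in each of the 3 WT (blue) and 3 Tnfaip2-/- (orange) EB samples, with a line at each group mean. Of the 14 genes, 3 are lower and 11 are higher in Tnfaip2-/- EBs. The groups do not overlap for any of them, but the genes were chosen for such a change. Groups do not overlap for 69.4% of all tested genes.

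All 16 genes of receptor adaptors, TRAF proteins and ubiquitin ligases were tested, with 8 higher, 3 lower and 5 that did not pass. Over all tested genes 34% were higher and 33.7% lower. Casp8, which encodes the initiator caspase of death receptors, was counted 67, 75 and 83 times in WT EBs and 177, 175 and 179 times in Tnfaip2-/- EBs. Traf1, whose product binds TNFR2 and is itself an NF-kB target, was counted 16, 15 and 15 times in WT EBs and 80, 70 and 72 times in Tnfaip2-/- EBs. Traf5, an adaptor of several receptors of the family, was counted 15, 23 and 29 times in WT EBs and 53, 70 and 67 times in Tnfaip2-/- EBs. The 3 genes were higher in every Tnfaip2-/- sample than in any WT sample, although Traf1 and Traf5 had few counts. The log2 fold changes were 1.27 for Casp8 (edgeR adjusted p = 5.4e-14), 2.30 for Traf1 (edgeR adjusted p = 4.27e-14) and 1.54 for Traf5 (edgeR adjusted p = 6.77e-09). Of their read-length windows, 4.24% in Casp8 and 4.39% in Traf5 overlap another gene. Traf4, the TRAF gene with the highest RPKM of the list, was higher by a log2 fold change of only 0.20 (edgeR adjusted p = 1.47e-07).

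Of 9 genes of the TAK1, NIK and IkB kinase complexes, 6 were higher and 2 lower, against 34% and 33.7% of all tested genes. Ikbke, which encodes the IKK-related kinase IKKε, was counted 13, 11 and 12 times in WT EBs and 39, 40 and 28 times in Tnfaip2-/- EBs. The groups were apart, with Tnfaip2-/- replicate 3 nearest to the WT samples, and the log2 fold change was 1.60 with a standard error of 0.26 (edgeR adjusted p = 5.47e-07). Tab2, an adaptor of TAK1 and the gene of the list with the highest RPKM, had overlapping groups and a log2 fold change of -0.07 that did not pass (edgeR adjusted p = 0.0804). Its adjusted p fell below 0.05 without WT replicate 1 (log2 fold change -0.09, 0.0348), without WT replicate 3 (-0.09, 0.0403), without Tnfaip2-/- replicate 1 (-0.10, 0.019) and without the filter on low counts (-0.09, 0.0386), and it ranged up to 1 over the alternatives.

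Of 5 other genes of the IkB family, 2 were higher and 1 lower, against 34% and 33.7% of all tested genes. Nfkbiz, which encodes the nuclear protein IkBζ, was counted 99, 102 and 102 times in WT EBs and 234, 241 and 225 times in Tnfaip2-/- EBs. It was higher in every Tnfaip2-/- sample, by a log2 fold change of 1.24 with a standard error of 0.10 (edgeR adjusted p = 1.19e-15), while Nfkbia of the same family was lower. Nfkbib, which encodes IkBβ and had the highest RPKM of the list, had a log2 fold change of -0.09 that did not pass (edgeR adjusted p = 0.109). Without WT replicate 3 it was -0.13 and passed (edgeR adjusted p = 0.0298), with adjusted p up to 1 over the alternatives, and 12.6% of its windows overlap other genes, chiefly Ccer2 on the opposite strand.

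Of 8 genes of deubiquitinases and A20 partners, 7 were tested, and 6 were higher and 0 lower in edgeR. Over all tested genes 34% were called higher and 33.7% lower, and the difference was not tested. In the list 0 were lower also at an unadjusted p below 0.05 and in DESeq2. The list median was 0.35 on the log2 scale, against 0.003 over all tested genes. Tnip1, whose product binds A20, had the highest RPKM of the list as a mean over all 6 samples (13.8) but not within either genotype, where Otulin in WT EBs and Tax1bp1 in Tnfaip2-/- EBs were above it by margins within the spread. It was counted 964, 923 and 999 times in WT EBs and 1278, 1299 and 1120 times in Tnfaip2-/- EBs. All Tnfaip2-/- samples were higher, with replicate 3 the lowest of them, and the log2 fold change was 0.39 (edgeR adjusted p = 2.66e-10). Tnfaip3, the gene of A20 itself, was higher by 0.29 on the log2 scale, with the weaker call described above.

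Most classical NF-kB target genes had few counts. Of 25 such genes, 16 did not pass the filter, and Cxcl2, Csf2, Sele and Bcl2a1b had no count in any sample. Of the 9 tested genes, 4 were higher and 0 were lower in edgeR, with 0 lower also at an unadjusted p below 0.05 and in DESeq2. Over all tested genes edgeR called 34% higher and 33.7% lower, and the difference was not tested. The list includes the edited gene Tnfaip2, which did not pass the filter and was called lower when fitted without it, as given above. Ier3, an early response gene linked to cell survival, was counted 256, 248 and 247 times in WT EBs and 1084, 1074 and 1072 times in Tnfaip2-/- EBs. It was the gene with the highest RPKM of the list, and its log2 fold change of 2.14 had a standard error of 0.06 (edgeR adjusted p = 1.83e-33). Icam1, which encodes an adhesion molecule for leukocytes, was counted 405, 375 and 413 times in WT EBs and 842, 786 and 792 times in Tnfaip2-/- EBs. Gadd45b, a stress response gene, was counted 151, 131 and 168 times in WT EBs and 329, 302 and 301 times in Tnfaip2-/- EBs. Each of these genes was higher in every Tnfaip2-/- sample, with log2 fold changes of 1.06 for Icam1 (edgeR adjusted p = 3.73e-22) and 1.09 for Gadd45b (edgeR adjusted p = 1.37e-15). Of the windows of Icam1, 13.1% overlap another gene, chiefly the antisense gene Gm47079, and reads of the pair cannot be told apart without strand.

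The NF-kB motif was searched in the same way in the other pathway genes. It was present in 20 of 73 other pathway genes with a window, among them 9 of 18 classical target genes, 3 of 4 other IkB family genes and 4 of 6 genes of deubiquitinases and A20 partners. It was in 1 of 10 ligand genes, 1 of 13 receptor genes, 1 of 14 adaptor and ligase genes and 1 of 8 kinase genes. Of the 12 genes with a window that changed at least 2-fold, only Ier3 held a match. Of the 27025 genes with a promoter window, 5.14% held one, and of the 11143 of them tested here, 6.3% did.

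Markers of cell types that EBs can contain were read beside these results. Pluripotency markers were abundant in both genotypes, with a summed level of 1928, 1914 and 1924 CPM in WT EBs and 1972, 1981 and 1992 CPM in Tnfaip2-/- EBs. The near-equal sums hid changes in both directions, since 4 of the 6 genes were higher and 2 lower. Pou5f1, the highest by RPKM in WT EBs, went from 337.9 to 186.4 RPKM, and Zfp42, the highest in Tnfaip2-/- EBs, went from 121.7 to 227.5 RPKM. Markers of haematopoietic cells and macrophages, in which the pathway is highly active, summed to 14.16, 14.42 and 14.05 CPM in WT EBs and 22.4, 21.8 and 21.3 CPM in Tnfaip2-/- EBs. Laptm5 and Cd68 together held most of the counts in that sum. By RPKM Cd68 was the higher, at 4.92 in WT EBs and 6.76 in Tnfaip2-/- EBs against 1.91 and 3.20 for Laptm5. They were the only genes of the 10 that passed edgeR's filter, both higher. The defining markers Ptprc, Adgre1, Csf1r, Tyrobp and Lyz2 had at most 1 count in any sample. Spi1, a transcription factor of myeloid cells, was counted 4, 4 and 5 times in WT EBs and 9, 22 and 14 times in Tnfaip2-/- EBs, without overlap, and was called higher in DESeq2 (adjusted p = 0.0115). Itgam (6 to 14 counts) and Fcer1g (2 to 6 counts) overlapped between the genotypes.

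Endothelial markers summed to 28.3, 27.8 and 27.3 CPM in WT EBs and 33.9, 37.4 and 39.8 CPM in Tnfaip2-/- EBs, with Pecam1 the highest by RPKM in both genotypes. Pecam1 and Tek, which passed the filter in both genotypes, were higher. Tie1 was called higher and Kdr lower, each passing the filter only through the genotype in which it was high. Kdr was counted 34, 38 and 32 times in WT EBs and 5, 6 and 3 times in Tnfaip2-/- EBs, against the direction of the sum. Cdh5 had 3 to 10 counts and Emcn at most 2 in any sample. Most of the sum was Pecam1 alone, at 23.8 ± 0.616 CPM in WT EBs and 32.6 ± 2.77 CPM in Tnfaip2-/- EBs. Fibroblast markers summed to 8.65, 10.0 and 8.64 CPM in WT EBs and 5.81, 6.30 and 6.85 CPM in Tnfaip2-/- EBs, with Thy1 the highest by RPKM in both genotypes. Of the 7 genes Thy1 and Col1a1 passed the filter in both genotypes and were not called, and Col1a2 and Col3a1 were called lower but passed the filter only through WT EBs. Dcn, Postn and Lum did not pass the filter, but Dcn, counted 8, 8 and 9 times in WT EBs and 1, 0 and 0 times in Tnfaip2-/- EBs, was called lower in DESeq2 (adjusted p = 0.00315).

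Markers of extraembryonic endoderm summed to 82.4, 80.0 and 80.5 CPM in WT EBs and 67.4, 66.7 and 69.2 CPM in Tnfaip2-/- EBs, with Dab2 the highest by RPKM in both genotypes. Of the 8 genes Sox17 was called higher in edgeR (adjusted p = 0.0116) but not in DESeq2 (adjusted p = 0.117). In edgeR 5 were called lower, of which Afp passed the filter only through WT EBs. Trophoblast markers summed to 27.3, 24.7 and 26.3 CPM in WT EBs and 180.4, 176.9 and 179.5 CPM in Tnfaip2-/- EBs. Nearly all of this difference was Tfap2c alone, at 21.7 ± 1.07 CPM in WT EBs and 171.1 ± 1.65 CPM in Tnfaip2-/- EBs. Ascl2 was also higher, while Krt7 and Hand1 (called higher) and Cdx2 (called lower) passed the filter only through the genotype in which they were high. The defining marker Elf5 had at most 3 counts in any sample and Gata3 between 4 and 8, and neither passed the filter. All 6 summed levels separated the genotypes, but the groups also did not overlap for 69.4% of all tested genes. The part of cell composition in the differences among pathway genes was not tested.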

How the data were processed

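The authors sequenced RNA libraries made with an unstranded kit (Illumina TruSeq RNA v2). Per the labels the processing used bcl2fastq (1.8.4, where the study's methods give a later version for EBs), TopHat2 2.1.0, featureCounts 1.5.0 and the genome build GRCm38. The deposited values were counts of reads per gene, not normalized, from Ensembl release 90, and whether strand was used in counting is not given in the sources used here. All 6 samples were used. Counts were normalized by TMM and tested between genotypes with edgeR 4.0.16 (glmQLFit with robust estimation and glmQLFTest) in R 4.3.3, without covariates, over genes kept by filterByExpr (minimum count 10, minimum total 15). P-values were adjusted over all tested genes at a threshold of 0.05, and intervals are 95% intervals from the same fit. RPKM used exon lengths from a GENCODE annotation of GRCm38. It is not the Ensembl release 90 used for counting, so lengths of single genes may differ. Alternatives were DESeq2 1.42.0, other scaling factors, other filters, edgeR's legacy form, a test against a fold change of 1.5, a replicate block and leaving out each sample. The fitting script was tested on simulated data.

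The genes and lists were chosen with earlier results of these data known. Besides the 10 genes, the genes named by rule were those of the pathway lists with an adjusted p below 0.05, a mean of at least 1 CPM and a change of at least 2-fold, the gene with the highest RPKM of each list, Tnfaip2, Tnf and Lta. Genes named for a count of 5 or fewer, or singled out beyond this rule, were chosen after their values were seen. Windows of 51 bases, 1 read length, were used to find bases shared between genes.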

Additional observations from a re-analysis of the deposited data

How the results depend on the processing

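Of 140 values of the 10 genes under alternatives, 125 kept their direction and their side of the threshold, 13 kept the direction but lost the call, 1 gained a call and 1 reversed, which was Rel at -0.0048 without Tnfaip2-/- replicate 1 (up to 0.4256 without Tnfaip2-/- replicate 2). For the other pathway genes named by rule that passed the filter, 258 of 266 values kept both, 3 lost and 5 gained a call. This tally leaves out Chuk, and also Tnfaip2, Tnf and Lta, which did not pass the filter. The number of the 10 genes called higher was 0 in DESeq2, 0 without the expression filter and 0 against a fold change of 1.5, and ranged from 0 to 1 when single samples were left out. Without WT replicate 1 that 1 gene was Relb and not Tnfaip3. Against a fold change of 1.5, 2798 genes were called in all, with 1 of the 10 genes lower, 13 other pathway genes higher and 3 lower, since that test asks for a larger change. The causes of the other differences were not tested. The replicate numbers are shared by the genotypes, but the samples share only a number: deviations of same-numbered samples correlated at -0.042, -0.042 and -0.046, and no sample correlated best with its own number. With the replicate block 11841 genes were called in place of 12084, with 1 of the 10 genes higher and 4 lower, and 31 other pathway genes higher and 13 lower. Low counts, as in Rel and Tnfaip3, limit how small a change could be called, and 30 of the 91 other pathway genes did not pass edgeR's filter on low counts.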
